A study of Homo sapiens with 7 samples.

Results

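The FOXA1 peaks private to SETD7 knockdown are peaks called in 22Rv1 cells carrying a hairpin against SETD7 (shSETD7) and called nowhere else in the series. The members were chosen by overlap alone. A peak of the shSETD7 FOXA1 list on chromosomes 1 to 22 or X is private when it shares no base with any peak of the other 5 FOXA1 lists or of the SETD7 list. The rule kept 19339 of the 63682 shSETD7 peaks, or 30.4% (95% Wilson interval 30.01 to 30.73), among 464730 peaks in the 7 lists. Absence from the other lists is therefore what defined these sites and is no finding about them. Scores, widths, positions and distances are given as descriptions, without tests.

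FOXA1 is a forkhead transcription factor that can bind its motif in closed chromatin. In prostate cells it opens enhancers for other factors, among them the androgen receptor. SETD7 is a lysine methyltransferase that acts on histone H3 and on other proteins, and the series title names FOXA1 as a protein it methylates. LSD1 (KDM1A) is a lysine demethylase.

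Chromatin immunoprecipitation sequencing was done in 22Rv1 (CWR22-Rv1) and LNCaP, established human prostate cancer cell lines, after crosslinking with 1% formaldehyde. In 22Rv1, FOXA1 was mapped in cells with shSETD7, in cells with the control hairpin shCTL (83633 peaks) and in vehicle cells (65093 peaks), and SETD7 was mapped in vehicle cells (25363 peaks). In LNCaP, FOXA1 was mapped after 4 h with DMSO (79741 peaks), with the LSD1 inhibitor GSK2879552 (63866) or with GSK2879552 and the SETD7 inhibitor PFI-2 (83352). Each group has 1 library, given as the authors' peak list on build hg19, so there was no spread between replicates and no test between conditions. Whether the hairpin lines are clones or pools, and how far SETD7 fell, is not given in the sources used here. Peak names of the vehicle FOXA1 list carry the tag siNTC in all 65461 lines of the file, so that list is called vehicle only as labelled. The lists do not give the depth of sequencing, and all intervals cover counting error only.

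Being private was common in every 22Rv1 FOXA1 list. By the same rule 22.8% of the shCTL peaks (19088; 22.5 to 23.1) and 20.3% of the vehicle peaks (13186; 19.95 to 20.6) were found in no other list, against 30.4% for shSETD7. The private share was thus higher in the knockdown list than in either control list, by more than the counting error of each. In the LNCaP lists it was 6.06% with DMSO, 2.34% with GSK2879552 and 7.44% with the combination. The lists also differ in their lowest score, 40, 48 and 47 in these LNCaP lists and 13 in each 22Rv1 FOXA1 list. The part of this floor in the difference between the lines was not tested. Each FOXA1 list was compared with 2 other FOXA1 lists of its own line, and those of 22Rv1 also with the SETD7 list of that line. With the shCTL list as the only comparison, 41.8% of the shSETD7 peaks (26621) had no partner, so the other 5 lists together accounted for 7282 of the peaks that shCTL lacked.

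Sorting the shSETD7 peaks by how many of the other 5 FOXA1 lists they overlapped gave mostly peaks with no such list or with all of them. No FOXA1 list was overlapped by 21447 peaks, and all 5 by 14304. The groups between them held 10531, 8444, 3868 and 5088 peaks for 1, 2, 3 and 4 lists. Private peaks are the 21447 less 2108 that overlapped a SETD7 peak and nothing else. The share with a SETD7 peak was 6.17% over the whole list. It was highest among peaks with no FOXA1 partner, at 9.83%, and fell to 2.71% among those in all FOXA1 lists. The SETD7-only peaks were unevenly placed. Chromosomes 1, 3, 7, 8 and 12, chosen with earlier results of these data known, held 1632 of the 2108 and the other chromosomes 476. They held 42.5% of the shSETD7 list. The whole SETD7 list was itself concentrated there, with 5272, 4043, 2991, 2926 and 2583 of its 25363 peaks on these chromosomes in turn. No other chromosome held more than 776 SETD7 peaks. The part of this in the placement of the SETD7-only peaks was not tested. The 2108 SETD7-only peaks resembled the private ones in score, with a median of 35 in both, and were wider, with a median of 342 bp against 300 bp.

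**Figure D1:**
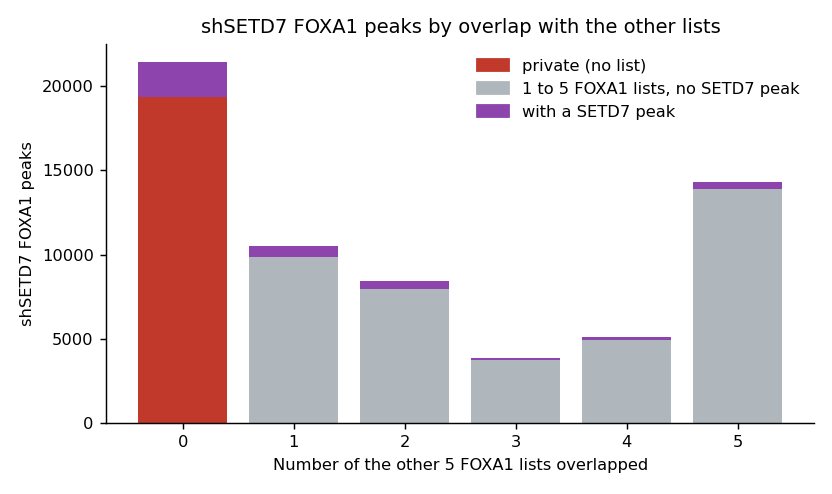
Number of shSETD7 FOXA1 peaks (vertical axis) by how many of the other 5 FOXA1 lists they overlap (horizontal axis). Red is the 19339 private peaks, purple the peaks that also overlap a SETD7 peak and grey the rest; the bars for 0 lists (21447 peaks) and 5 lists (14304 peaks) are the tallest.

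The list that removed the most peaks on its own was shCTL. It was the sole partner of 7395 shSETD7 peaks, vehicle FOXA1 of 1905, LNCaP with the combination of 238, LNCaP DMSO of 218 and LNCaP GSK2879552 of 114. Leaving shCTL out would have raised the private share to 41.98%, while leaving out any 1 LNCaP list would have changed it to between 30.5% and 30.7%. Peaks shared with shCTL alone had a median score of 83 and those shared with all 5 FOXA1 lists and no SETD7 peak a median of 341, against 35 for private peaks. A score is the authors' whole number for each peak, of undefined scale. Here peaks are compared by it only within the shSETD7 list, where it ran from 13 to 35543.

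Private peaks were weak within their list. Their scores had a median of 35, with quartiles at 27 and 59, against a median of 134 and quartiles at 62 and 338 for the other shSETD7 peaks. The lower-scoring 50% of the list held 88.0% of them (87.5 to 88.4), or 17010 peaks, and the higher-scoring 50% the remaining 2329. Private peaks of the shCTL and vehicle lists were also mostly in the lower-scoring 50% of their own lists, at 83.0% (82.4 to 83.5) and 85.8% (85.2 to 86.4).

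The private share fell at every step from the lowest to the highest score decile of the shSETD7 list. In the lowest decile, scores 13 to 26, 4450 of 6039 peaks were private, or 73.7% (72.6 to 74.8). The share was 66.2%, 54.7%, 43.1% and 32.0% in deciles 2 to 5, then 19.7%, 11.4% and 4.68% in deciles 6 to 8. In decile 9 it was 1.13% (72 of 6386 peaks), and in the highest decile, scores 615 to 35543, it was 0.157% (10 of 6367; 0.0853 to 0.289).

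The private share exceeded that of shCTL in deciles 1 to 6 and that of vehicle in deciles 1 to 8, with intervals apart. In the lowest decile the private share was 73.7% for shSETD7, 55.7% for shCTL (54.6 to 56.7) and 45.6% for vehicle (44.4 to 46.8). In decile 6 the shares were 19.7% (18.7 to 20.7), 16.3% (15.6 to 17.1) and 15.2% (14.3 to 16.1). In decile 7 the values were 11.4% (10.7 to 12.2), 10.6% (9.97 to 11.3) and 9.41% (8.73 to 10.1), so the intervals of shSETD7 and shCTL overlapped and that of vehicle lay lower. In decile 8 they were 4.68% (4.18 to 5.22), 7.20% (6.66 to 7.77) and 3.51% (3.09 to 3.99), so shSETD7 was below shCTL and still above vehicle. In the highest decile shCTL had the largest private share, at 0.813% (0.642 to 1.03), with 68 peaks against 10 for shSETD7 and 9 for vehicle (0.138%). The order of the 22Rv1 lists was therefore not the same for weak and strong peaks, and the knockdown list held fewer strong private peaks than the shCTL list. Deciles are ranks within a list, so peaks of one decile need not be equally strong in different lists. The intervals count peaks of 1 library per list and do not cover differences between libraries.

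**Figure D2:**
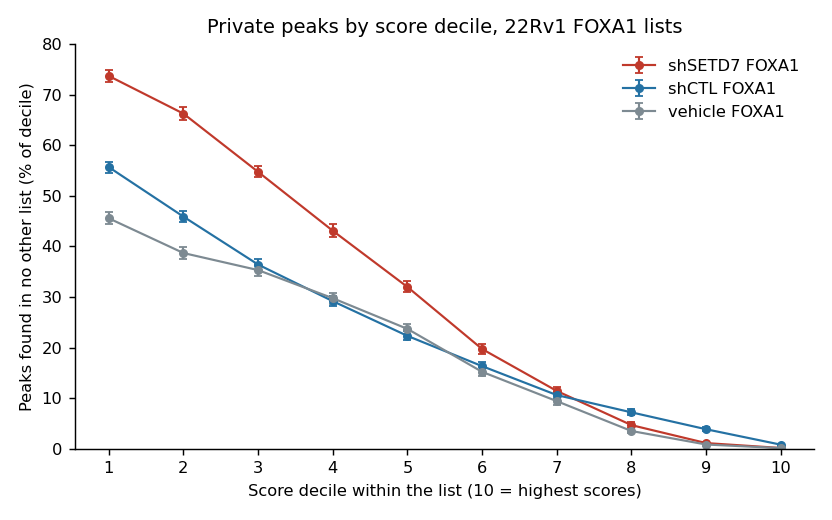
Percentage of peaks found in no other list (vertical axis) by score decile within each list (horizontal axis, 10 is highest) for the shSETD7, shCTL and vehicle FOXA1 lists of 22Rv1; points are shares and bars 95% Wilson intervals. The shSETD7 line starts at 73.7% and lies above both others up to decile 7, and falls below the shCTL line from decile 8 on.

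Scores of private peaks were concentrated on a few values. A score of 27 was held by 2237 private peaks, a score of 20 by 1966, a score of 35 by 1836 and a score of 44 by 1217. These 4 scores covered 11.6%, 10.2%, 9.49% and 6.29% of the private peaks, but 2.31%, 1.59%, 2.67% and 2.58% of the other shSETD7 peaks. The other peaks mostly scored higher, with a lower quartile of 62. Of all shSETD7 peaks with these 4 scores, 68.6%, 73.6%, 60.8% and 51.5% were private. The shares of their deciles (2, 1, 3 and 3) were 66.2%, 73.7%, 54.7% and 54.7%. At the list's lowest score of 13, 79.2% of the peaks were private.

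Only 10 private peaks reached the highest decile, and these are the 10 with the highest scores. The highest score was 1485, at chromosome 20 from 47724740 to 47724977, which ranked 2395 in the list. Its nearest peak in any list was a vehicle FOXA1 peak 4086 bp away, and its nearest shCTL peak lay 52815 bp away. This peak was 238 bp wide, near the list's smallest width of 235 bp, while 5% of the other peaks of the highest decile were narrower than 369 bp. Next came chromosome 8 from 134779250 to 134779760, with a score of 1424 and a width of 511 bp. All 5 other FOXA1 lists had their nearest peak between 11274 and 11330 bp from it, and the nearest shCTL peak had a score of 1797, in the highest decile of its own list.

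On chromosome 14 the sites from 70465938 to 70466309 (score 923) and from 69014894 to 69015317 (score 922) followed. The second lay 1725 bp from a shCTL peak and between 1731 and 1815 bp from peaks of each of the other 4 FOXA1 lists. Peaks of both cell lines were thus found at a similar distance from it. Chromosome 8 held 2 more of the 10, from 91954939 to 91955557 (score 920) and from 135023152 to 135023651 (score 715). Their nearest shCTL peaks were 4866 and 3682 bp away. The site on chromosome 22 from 38465381 to 38465850 scored 754 and had an LNCaP DMSO peak at 11925 bp and a shCTL peak at 11956 bp.

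The last 3 of the 10 had unlike surroundings. Chromosome 5 from 161750459 to 161750892 (score 687) had no shCTL peak within 254564 bp and no peak of any list within 46929 bp, so it was the most isolated of the 10 from the other lists. By contrast, chromosome 3 from 34216266 to 34216665 (score 674) had a shCTL peak of score 58 only 630 bp away. Chromosome 11 from 129018369 to 129018804 (score 668) was 25369 bp from a shCTL peak but 2407 bp from an LNCaP peak of the combination. Of the 10 sites, 9 had no peak of any list within 1 kb. Genes at these sites are not named, because the gene table used here is on another build, and no hg19 sequence was used, so forkhead motifs were not searched.

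Private peaks were narrow. Their median width was 300 bp (299 to 302, order-statistic interval), with quartiles at 261 and 376 bp and a range from 235 to 1415 bp, against a median of 387 bp and quartiles at 306 and 495 bp for the other shSETD7 peaks. Peaks wider than 500 bp made up 8.84% of the private and 24.0% of the other peaks. They covered 25.7% of the bases in the list, less than their 30.4% of its peaks. The widest, on chromosome 13 from 93879483 to 93880897, had a score of 50.

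The width gap remained within score deciles. Scores are not matched inside a decile: the highest runs from 615 to 35543, and its 10 private peaks score from 668 to 1485. The part of this in the gap was not tested. Within each of the 10 score deciles the private peaks had the smaller median width. In the lowest decile the medians were 289 bp (286 to 292) and 300 bp (295 to 305). The gap was 19 bp in decile 6 (325 against 344 bp), 41 bp in decile 7 (328 against 369 bp) and 65.5 bp in decile 9 (364.5 against 430 bp). In the highest decile the medians were 435 bp (372 to 511) and 481 bp (479 to 484), and with 10 private peaks these intervals overlapped. The vehicle list showed the same direction in all 10 deciles. In the shCTL list private peaks were narrower up to decile 7 and wider in deciles 8, 9 and 10, by 11, 17 and 21 bp, so narrow strong private peaks were not seen in all 22Rv1 lists.

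**Figure D3:**
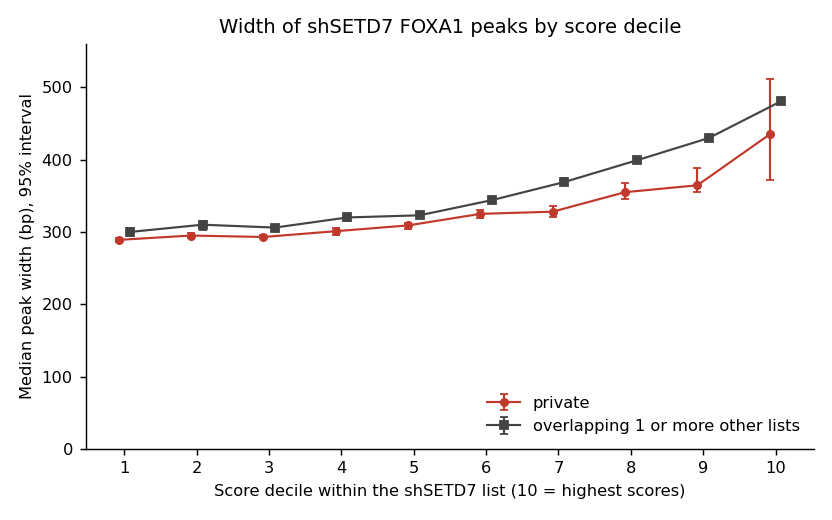
Median width in bp (vertical axis) of private (red circles) and other (dark squares) shSETD7 FOXA1 peaks by score decile (horizontal axis, 10 is highest), with 95% order-statistic intervals as bars. Private peaks had the lower median in each decile, from 289 against 300 bp in the lowest to 435 against 481 bp in the highest.

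Of the private peaks, 10.1% lay within 1 kb of a shCTL peak and 50.1% within 10 kb. The distance between nearest edges to a shCTL peak had a median of 9963 bp (9743 to 10184), with quartiles at 3812 and 22086 bp. Within 200 bp of a shCTL peak lay 273 private peaks (1.41%), within 1 kb 1960 (10.1%) and within 10 kb 9692 (50.1%). No shCTL peak was found within 100 kb of 488 private peaks. The shSETD7 peaks that also lacked a shCTL partner but were found in some other list had a similar median, 10223 bp over 7282 peaks. Their shares were also similar, 8.02% within 1 kb and 49.2% within 10 kb.

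The distance to shCTL shortened as the score of the private peak rose. It had a median of 11497 bp (10951 to 12026) in the lowest decile, 9175 bp (8570 to 10037) in decile 5 and 6622 bp (5650 to 7675) in decile 7. Such a trend was not seen in the peaks that lacked shCTL but had another partner, whose medians were 10313, 10391 and 9721 bp in these deciles. In decile 7 the private peaks were nearer to shCTL peaks than those were (6622 against 9721 bp, intervals 5650 to 7675 and 8356 to 10943). In the lowest decile they were farther (11497 against 10313 bp, with intervals 10951 to 12026 and 9468 to 11229 that overlapped). In deciles 8, 9 and 10 the private medians were 6283, 6344 and 8086 bp, the last over 10 peaks.

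Among all lists, the nearest was most often shCTL, for 6500 private peaks (33.6%), then LNCaP with the combination (3639), LNCaP DMSO (3118), SETD7 (3007), vehicle FOXA1 (2638) and LNCaP GSK2879552 (437). The lists differ in length, and the part of length in this order was not tested. Median distances were 12948 bp to vehicle FOXA1, 11337, 14694 and 10839 bp to the LNCaP lists with DMSO, GSK2879552 and the combination, and 39850 bp to SETD7. Taking all 6 lists together, the median distance to any peak was 4617 bp (4508 to 4726). A peak of another list lay within 1 kb of 3571 private peaks, or 18.5%, and 15768 had none. Only 25 had none within 100 kb.

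**Figure D4:**
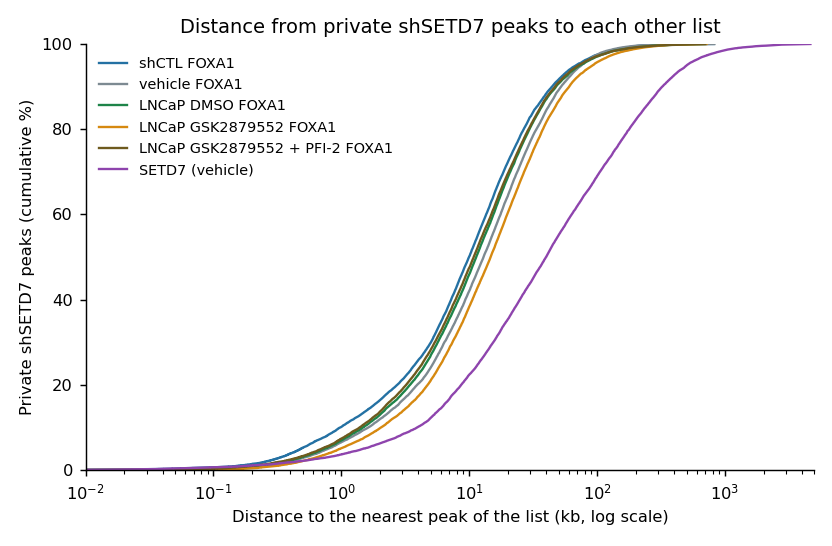
Cumulative percentage of the 19339 private shSETD7 peaks (vertical axis) by distance in kb to the nearest peak of each other list (horizontal axis, log scale; distances under 0.01 kb are drawn at the left edge). The 5 FOXA1 curves lie close together, with shCTL leftmost (median 9963 bp), and the SETD7 curve lies to the right (median 39850 bp).

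The shCTL neighbours were ordinary control peaks. Of the nearest shCTL peaks, 18.5% were in the highest 20% of shCTL scores. This was 20.5% (16.1 to 25.7) for private peaks within 200 bp and 16.2% (14.5 to 18.02) for those between 200 bp and 1 kb. The nearest shCTL peak was itself overlapped by another shSETD7 peak for 42.5% of the private peaks, against 44.5% of all shCTL peaks. It was so for 13.2% (9.68 to 17.7) of the 273 private peaks within 200 bp and 39.6% (37.3 to 41.95) of the 1687 between 200 bp and 1 kb. For the rest of those 273, no shSETD7 peak overlapped the nearest control peak, and the private peak lay under 200 bp from it. Peaks of a list do not overlap, so a private peak this close limits the room for another shSETD7 peak there. The part of this in the low share was not tested.

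Few peaks lay near the edge of the rule. Just inside it, 3 private peaks touched a peak of another list with no gap, the highest-scoring of them on chromosome 2 from 237994358 to 237994602 (score 126), adjoining a shCTL peak of score 41. A gap under 50 bp was found for 203 private peaks. Outside it, 6 shSETD7 peaks shared at most 1 bp with any peak of another list, such as chromosome 3 from 106136420 to 106136671 (score 35), and 259 shared at most 50 bp. Median scores were 35 on both sides, and median widths 318 bp inside and 305 bp outside. Among all shSETD7 peaks that are not private the median of the largest overlap was 314 bp.

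The 5 private peaks farthest from shCTL were weak, with scores from 13 to 72, and fell in 2 regions. On chromosome 16 they lay from 6372740 to 6373017 (814938 bp from a shCTL peak), from 5816493 to 5816817 (578784 bp) and from 5788491 to 5788807 (550782 bp). The nearest peak to each of these 3 was a SETD7 peak, 98821, 33730 and 61740 bp away. On chromosome 14 the sites from 99010334 to 99010589 (647980 bp) and from 99119619 to 99119855 (538714 bp) completed the group. The last of these had LNCaP peaks at 2922 to 2963 bp in all 3 LNCaP lists, so it was isolated from 22Rv1 control sites but not from LNCaP ones.

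Private peaks rarely stood in groups of their own. Runs of private peaks with gaps under 10 kb held a single peak in 16110 cases (83.3% of private peaks) and 2 in 1389 cases, and the longest, 3 in number, held 5. The share with another private peak within 10 kb was 16.7% (16.2 to 17.2). In the lower-scoring 50% of the list it was 16.7% for private peaks and 16.2% (15.6 to 16.8) for the shSETD7 peaks that overlapped at least 1 other list but not all FOXA1 lists, which include the 2108 SETD7-only peaks.

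Stronger private peaks more often had another FOXA1 peak of the same library within 10 kb. Of the private peaks in the higher-scoring 50%, 47.6% (45.6 to 49.6) had another shSETD7 peak within 10 kb, against 40.3% (39.6 to 41.1) of the same comparison peaks, SETD7-only ones included, in that score range. A FOXA1 site found in all 6 FOXA1 lists lay within 10 kb of 14.7% (13.3 to 16.2) and 11.7% (11.3 to 12.2) of them. For the lower-scoring 50% the order was the reverse, 39.6% (38.9 to 40.4) against 42.3% (41.4 to 43.2) for any shSETD7 peak and 8.87% (8.45 to 9.31) against 10.2% (9.66 to 10.7) for a site in all 6. Scores are not matched within these ranges. Of the 2329 private peaks in the higher-scoring 50%, 1238 were in decile 6 and 712 in decile 7. The part of this in the differences was not tested. Score, width and the chance of being called beside another peak come from 1 library and are not independent.

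Along the genome, private peaks were dense on 8 chromosome arms. Chromosomes were divided into 42 arms at the longest stretch without a peak in any list, where this was at least 1 Mb; chromosomes 13, 14, 15 and 22 count as 1 arm each. Over all arms there were 6.78 private peaks per Mb, with a median of 5.49 per arm. On 1q there were 17.2 per Mb, and on 3q, 8q, 3p, 12q, 7p, 12p and 7q between 10.8 and 11.8 per Mb. The next were 21p, a short arm of 16 private peaks, at 9.03 per Mb and 19q at 7.23 per Mb. The lowest were Xq at 1.86 and Xp at 2.23 per Mb.

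The same 8 arms had the highest shares of private peaks among their shSETD7 peaks, and they were grouped from these shares after the values were seen. The share was 37.6% on 3p (35.8 to 39.4; 1060 of 2821 peaks), 37.1% on 8q (35.4 to 38.8), 36.3% on 7q (34.6 to 38.1), 36.1% on 3q (34.5 to 37.7) and 34.8% on 1q (33.5 to 36.1). On 12p, 7p and 12q it was 34.7%, 33.9% and 33.7%. The group was defined as the arms whose lower bound exceeded 30.4%, the share of the whole list, so that bound is no finding about them. This cut depends on the number of peaks on an arm. The next arm, 18p, had 33.5% (28.1 to 39.3) over 272 peaks and was left out. Together the 8 arms held 43.6% of the private peaks (42.9 to 44.3), 37.2% of the shSETD7 peaks and 24.1% of the length covered by the arms. The lowest shares were 12.1% on 21p (7.60 to 18.8), 21.7% on 19p (18.8 to 24.99), 21.8% on Xq (19.1 to 24.8), 24.4% on 17q (22.2 to 26.7) and 24.5% on 8p (21.6 to 27.7).

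These arms were also dense in whole 22Rv1 lists. SETD7 peaks numbered 18.8 to 44.8 per Mb on the 8 arms, 18.1 on 8p and 117 on 21p, and 0.753 to 5.59 on the other 32 arms. Vehicle FOXA1 peaks numbered 30.4 to 39.7 per Mb on the 8 arms and 8.27 to 25.7 on the 32, ranges that did not overlap, and shSETD7 peaks 29.8 to 49.5 against 8.52 to 27.8. The ranges overlapped for shCTL FOXA1, 27.6 (on 3p) to 52.0 per Mb against 12.6 to 33.4, and for LNCaP DMSO, 27.9 to 32.3 against 14.3 to 32.2. The separation of these arms was thus seen in the whole SETD7, vehicle and shSETD7 lists, and not in the private peaks alone. Copy number of DNA was not analysed here, and its part in these densities was not tested.

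Per Mb, private peaks of the control lists were dense on the same arms, with exceptions on chromosomes 3 and 8. Peaks private to vehicle FOXA1 numbered 7.05 to 8.63 per Mb on the 8 arms and 1.22 to 4.86 on the 32. Those private to shCTL numbered 9.58 to 13.4 per Mb on 7 of the 8 arms, but 4.77 on 3p, where shSETD7 had 11.7 and vehicle 8.24 per Mb. On 8p the order was reversed, with 4.34 private peaks per Mb for shSETD7, 6.09 for vehicle and 8.58 for shCTL. All peaks of each list showed the same differences, with 31.2, 30.4 and 27.6 per Mb on 3p for shSETD7, vehicle and shCTL, and 17.7, 24.1 and 30.8 on 8p.

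**Figure D5:**
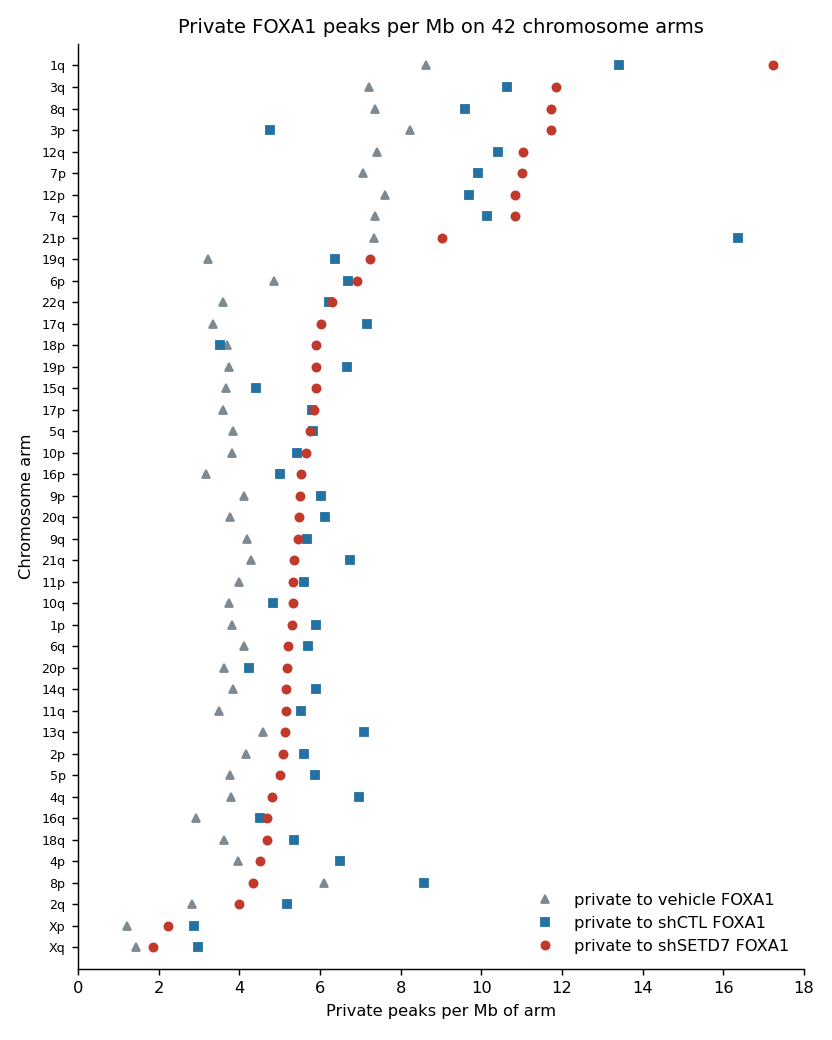
Private peaks per Mb (horizontal axis) on 42 chromosome arms (vertical axis, ordered by shSETD7) for the shSETD7 (red circles), shCTL (blue squares) and vehicle (grey triangles) FOXA1 lists. The red points of 8 arms, from 17.2 on 1q to 10.8 on 7q, stand apart from the rest, and on 3p the blue point (4.77) lies far to the left of the red one (11.7).

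The arm difference in share was seen mainly among weak peaks, and there not without overlap. In the lower-scoring 50% of the list 52.5% (1q) to 61.0% (3p) of the peaks were private on the 8 arms. On the 32 others it was 45.5% to 54.7%, so these ranges overlapped. In this measure 1q lay below 18p (54.7%), 5p (53.9%) and 15q (53.8%), among others. In the higher-scoring 50% the ranges were 6.30% to 8.49% and 5.38% to 11.6%, so there the 8 arms did not stand apart in share. Private peaks of the higher-scoring 50% numbered 0.862 to 1.47 per Mb on the 8 arms and 0.394 to 1.07 on the 32, ranges that overlapped, and those of the lower-scoring 50% 9.70 to 15.8 against 1.39 to 6.37. The arms also held more weak peaks: 53.4% to 60.5% of their shSETD7 peaks were in the lower-scoring 50%, against 34.9% to 54.4% on the 32. When the private count of each arm was divided by the count that its score deciles alone would give at the shares of the whole list, the ratio ran from 0.962 on 1q to 1.12 on 3p among the 8 arms and from 0.881 to 1.08 among the 32. It was 0.831 on 8p and 0.333 on 21p. The 21p share was thus low for its scores.

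On 21p, where SETD7 peaks were densest, the count turned on the SETD7 list. Of its 132 shSETD7 peaks 16 were private, and without the SETD7 list in the comparison 54.5% would have been.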

How the data were processed

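The 7 deposited files are peak lists with 1 score per peak, a whole number whose definition is not given in the sources used here. Peak starts and ends are the authors' own. The build is hg19 and the tools named are MACS2 2.1.4, SAMtools 1.9, FastQC 0.11.9 and BWA 0.7.17-r1188, per the submitters' processing notes. None of these gives settings, a threshold or an input control. Depth is unknown.

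Peaks on chromosomes 1 to 22 and X were used. Overlap means at least 1 shared bp, and distances run between nearest edges. Score deciles are ranks within a list, with ties kept together. Intervals are 95% Wilson for shares and 95% order-statistic for medians. The private count equalled that of bedtools 2.31.1 (19339), and the overlap code was tested on simulated data. Computation was in Python 3.11.15 with pandas 2.3.3, numpy 2.4.6, matplotlib 3.10.9 and scipy 1.17.1. Sites named were the 10 highest scores, the 5 farthest from shCTL, those at the edge of the rule and the 5 arms with the highest and lowest shares. The members, arms and lists were chosen with earlier results of these data known. The planned motif search needed an hg19 sequence and was not run.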

Additional observations from a re-analysis of the deposited data

How the results depend on the processing

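No paired analysis was possible because each group has 1 library. Of 40 alternatives over 5 results, 12 stayed within the interval of the reported value (for the count, within 1.5 times) and 28 did not. The private count (19339) was 2329 in the higher-scoring 50% of the list and 38098 without the 22Rv1 lists; otherwise it ran from 15768 to 26621. The alternatives that follow are, in order, no peak within 1 kb, reciprocal 50% overlap, shortened FOXA1 lists, no LNCaP lists, no 22Rv1 lists and shCTL alone. The share in the lower-scoring 50% (88.0%) came to 88.5%, 82.6%, 85.3%, 86.0%, 67.5% and 82.7%. Median width (300 bp) was 314 bp with reciprocal overlap, 306 bp with shortened lists, 325 bp without 22Rv1 lists, 305 bp with shCTL alone, 332 bp in the higher-scoring 50% and 303 bp without the SETD7 list. Median distance to shCTL (9963 bp) was 11854 bp with no peak within 1 kb, 7635 bp with reciprocal overlap, 13547.5 bp with shortened lists, 2537 bp without 22Rv1 lists (peaks overlapping shCTL count as 0), 7384 bp in the higher-scoring 50% and 9695 bp without the SETD7 list. The highest share of an arm (37.6%, 3p) was 30.1% on 18p with no peak within 1 kb, 48.4% on 8q with reciprocal overlap, 41.7% on 3p with shortened lists, 41.1% on 3p without LNCaP lists, and on 21p 76.5% without 22Rv1 lists, 59.8% with shCTL alone and 54.5% without the SETD7 list. In the higher-scoring 50% it was 11.6% on 21q. The 8 dense arms were the densest apart from 21p in 7 of these alternatives; in the higher-scoring 50%, 7 of the 8 were. Their shares had intervals above that of the whole list for all 8 arms except with no peak within 1 kb (5 arms) and in the higher-scoring 50% (0 arms). Looser or stricter rules and fewer lists change these values by definition, and beyond that the cause was not tested.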

Other observations

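Windows of 1 Mb with the most private shSETD7 peaks, picked after their counts were seen, lay on 1q. The window on chromosome 1 from 217000001 to 218000000 held 36 private peaks among 60 shSETD7 peaks, where the shCTL list had 46 peaks, vehicle FOXA1 47, SETD7 68 and LNCaP DMSO 30. The window from 213000001 to 214000000 held 35 of 68, and the median over 2881 windows with a shSETD7 peak was 6. Among the 10 windows with the most, 8 were on chromosome 1, with 1 each on chromosomes 7 and 12.

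The 3 longest runs of private peaks held 5 peaks each. On chromosome 1 from 208911462 to 208930244 and on chromosome 10 from 106008631 to 106035436, all 5 shSETD7 peaks in the run were private. The first span, of 18.8 kb, held no peak of any other list, and the second, of 26.8 kb, held 1 shCTL peak and no other. Their scores were 19 to 44 and 33 to 63. The third run, on chromosome 1 from 213261736 to 213284347, had scores of 27 to 78 and 2 peaks of each other list between its members.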
